A study of Mus musculus with 4 samples.

Results

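The genes of homologous recombination and of the Fanconi anaemia pathway were followed across the step from the mouse hematopoietic stem cell (HSC) to the multipotent progenitor (MPP). The set held 39 genes, and its measurements were all probe sets whose platform annotation named 1 gene that belonged to the set. That rule found 83 probe sets for 37 of the 39 genes, among 45037 probe sets without controls. Xrcc2 and Rbbp8 had no probe set under the rule and were not analysed here. Of the 83 probe sets, 70 lay above the lowest 40% of mean level and were tested, and they covered 36 genes of the 12382 genes tested in all. Bard1, the partner of Brca1, was the member left out by that filter: it read 2.65 and 2.04 units on the HSC arrays, against 3.13 and 16.4 units on the MPP arrays.

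The HSC group was 2 samples of CD34(-)KSL cells and the MPP group 2 samples of CD34(+)KSL cells, all sorted from mice of the C57BL/6 background. KSL cells are c-Kit-positive bone marrow cells without lineage markers, selected on a further surface protein. No treatment or engineered allele is named in the labels, and the age of the mice and the number pooled per sample are not given in the sources used here. RNA equal to 3000 cells per sample was amplified in 2 cycles and read on a Mouse Genome 430 2.0 array as probe set intensity in arbitrary units.

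Homologous recombination repairs a DNA break by copying the sister chromatid. The broken ends are trimmed to single strands, BRCA proteins and recombinase paralogs build a filament on them, and helicases and nucleases resolve the joined molecules. The Fanconi pathway unhooks crosslinks between the DNA strands: a core complex attaches ubiquitin to FANCD2 and FANCI, nucleases cut, and recombination completes the repair. The checkpoint kinases ATR and CHEK1 hold the cell cycle meanwhile. Copying from a sister needs a replicated chromosome, and several of these genes are known to be transcribed mainly in S and G2 phase. Inherited loss of the Fanconi pathway leads to bone marrow failure.

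The array medians were 26.1 and 26.9 units in HSC and 22.0 and 21.3 units in MPP. The floor, taken as the highest signal of 27 probe sets for Bacillus transcripts, was 16.9 and 16.7 units on the HSC arrays and 14.9 and 13.6 units on the MPP arrays. HSC replicate 2 stood apart in the 3' to 5' signal ratio of the actin control, at 9.42, against 4.99 to 5.26 on the other arrays. The sort labels matched their markers: 8 of 9 HSC markers were higher and 3 of 3 MPP markers lower in HSC. Neutrophil and monocyte markers summed to 1639 and 1079 units in HSC, against 7197 and 8792 in MPP (8 genes), and lymphoid markers to 67.6 and 130 in HSC, against 2359 and 3625 in MPP (7 genes). Megakaryocyte markers summed to 1053 and 794 units in HSC, against 544 and 385 in MPP (5 genes), and erythroid markers to 212 and 252 in HSC, against 76.8 and 69.0 in MPP (4 genes). Macrophage and dendritic markers summed to 178 and 163 units in HSC, against 190 and 190 in MPP, with 0 of 4 tested called, while Adgre1, Cd68, Itgax and C1qb were above the floor on all 4 arrays. Endothelial and stromal markers summed to 141 and 206 units in HSC, against 130 and 92.3 in MPP. Of the 4 tested, Kdr was higher in HSC, with 59.2 and 115 units in HSC, against 28.9 and 10.6 in MPP, where replicate 2 was below the floor. Pecam1 went the other way without a call, with 7.21 and 18.8 units in HSC, against 31.4 and 29.9 in MPP (log2 difference -1.02). Cxcl12 and Lepr were at 0.46 and 0.31 without a call. At or below the floor on all 4 arrays were the lymphoid Cd79a, Cd3e and Ebf1, the erythroid Alas2 and Slc4a1, the macrophage C1qa and the endothelial Cdh5. The part of other cell types in the results below was not tested.

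The recombination and Fanconi genes that passed the test were all lower in HSC. Of 36 tested members, 12 fell in HSC and none rose (limma, adjusted p under 0.05), led by the end-trimming nuclease Exo1 and followed by Brca1, Chek1, Eme1, Brip1, Rad54b, Usp1, Topbp1, Fancd2, Fanci, Rad54l and Blm. That was 33.3% of the tested members, against 5.90% of all genes tested for falls and 7.71% for rises. At an unadjusted p under 0.05, 16 members were lower and 0 higher, against 11.8% and 16.9% of all genes. Of 5001 tested genes whose mean level lay between the members' quartiles, 5.48% fell and 9.62% rose, and their median was 0.12. The median log2 difference of the members was -0.48, whereas that of all genes was 0.10. Of the 36, 31 lay below 0 before rounding, Rad50 by less than 0.01, as did 42.3% of all genes, and in 19 both HSC values were below both MPP values, a pattern seen in 23.4% of all genes. Among the probe sets that represent the members, Rad51d alone had both HSC values above both MPP values, a pattern seen in 35.3% of all genes. Other tested probe sets of Rad52, Fancm and Fancc had this pattern too, without a call.

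The members' median was between -0.64 and -0.44 in each of the 4 pairings of an HSC array with an MPP array. In bulk samples, fewer cells that express a gene and less of its RNA per cell cannot be told apart. Genes of cell division moved with the members: 23 mitosis genes summed to 3911 and 3089 units in HSC, against 19438 and 15611 in MPP, and the part of this difference in the members' values was not tested. The count of members that fell was 4 without MPP replicate 1 and 7 without MPP replicate 2. Those fits take the spread within groups from the HSC arrays alone, and 371 of 12382 genes and 2.83% of genes fell in them. Without HSC replicate 2, the array with the high actin ratio, 14 members fell, against 7.07% of all genes.

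**Figure D1:**
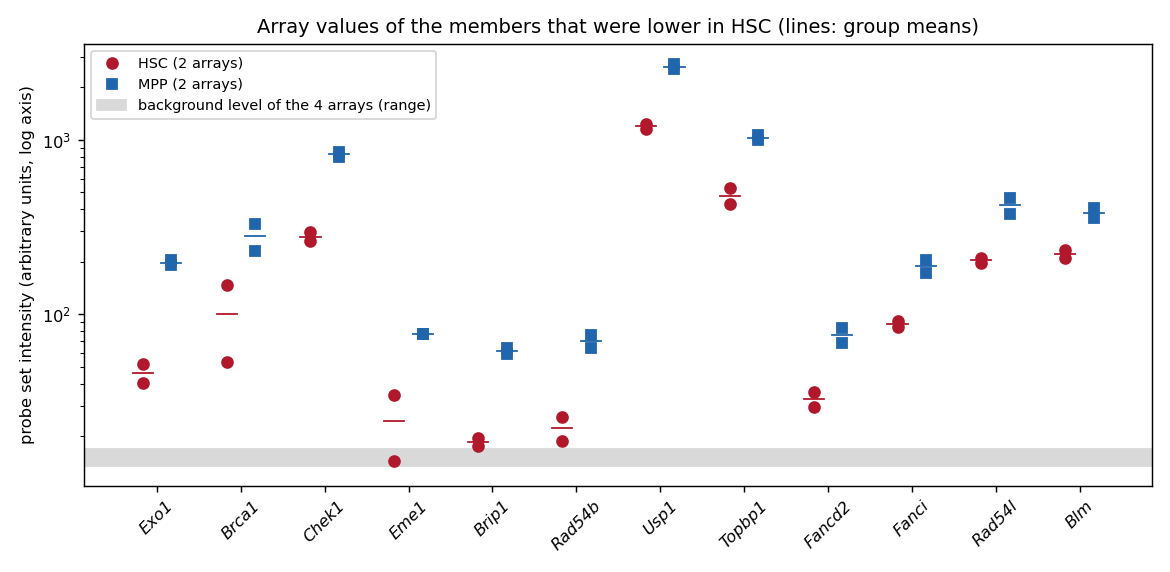
Probe set intensity (arbitrary units, log axis) of the 12 members that were lower in HSC, with HSC arrays as circles, MPP arrays as squares and group means as lines. In each of the 12 both HSC values lie below both MPP values, and Eme1 reached the band that marks the floor on HSC replicate 1 at 14.4 units. Heights of different genes are not comparable.

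Of the tested end-sensing and resection genes, Exo1 alone was called, and differences between these genes were not tested. Exo1, the exonuclease that extends the single-stranded tail, read 51.7 and 40.5 units in HSC, against 206 and 191 units in MPP. The 2 groups were far apart and the replicates of each were close. Exo1 was 3.94-fold lower in HSC (log2 difference -1.98, SE 0.25, limma adjusted p = 6.23e-04), the largest difference among the probe sets that represent the members, and it was called in all 14 alternatives. A second Exo1 probe set was lower too, at 37.3 and 48.2 units in HSC and 84.7 and 91.8 in MPP, with a log2 difference of -0.96 that missed the threshold (adjusted p = 0.0543). Dna2, the helicase-nuclease that works beside Exo1, was at -0.58 and -0.12 on its dimmer tested probe sets, without a call. On the probe set that represents it, Dna2 read 365 and 178 units in HSC and 463 and 521 in MPP. Its HSC replicates were further apart than HSC replicate 1 was from either MPP replicate, and it was not called (log2 difference -0.93, adjusted p = 0.0659). Without HSC replicate 1 it was called lower (-1.43, limma adjusted p = 3.46e-04), and without HSC replicate 2 it was at -0.42.

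The 3 subunits of the break-sensing complex were not called. Mre11a, its nuclease, had 128 and 136 units in HSC and 205 and 199 in MPP, which do not overlap (log2 difference -0.59, adjusted p = 0.101). A second tested Mre11a probe set was at -0.12 without a call. Nbn, the subunit that recruits ATM, had 96.1 and 182 units in HSC and 182 and 141 in MPP, with overlapping groups. Rad50, the ATPase that tethers the ends, had 288 and 268 units in HSC and 305 and 253 in MPP, a log2 difference of 0.00 (SE 0.19).

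Of the BRCA mediators, Brca1 fell and the other tested genes were not called. Brca1, a ubiquitin ligase that starts resection and recruits the filament loaders, read 53.6 and 147 units in HSC, against 329 and 230 units in MPP. The groups did not overlap, but the HSC replicates differed by 1.36 on the log2 scale, and HSC replicate 2 was the higher. The log2 difference was -1.56 (SE 0.38, limma adjusted p = 0.0254). A second tested Brca1 probe set was not called and lay on the other side, with 42.7 and 60.7 units in HSC and 43.7 and 31.3 in MPP (log2 difference 0.40, adjusted p = 0.502). With the mean of both probe sets Brca1 was at -0.58 with no call (adjusted p = 0.272), and the call also ended without MPP replicate 1 (-1.31, adjusted p = 0.0841). The size rested on single HSC arrays, at -0.88 without HSC replicate 1 and -2.24 without HSC replicate 2.

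Brca2, which loads the recombinase onto single-stranded DNA, read 136 and 244 units in HSC and 300 and 242 in MPP. HSC replicate 2 lay level with MPP replicate 2, and the gene was not called (log2 difference -0.55, adjusted p = 0.248). It was called lower without HSC replicate 2 (log2 difference -0.95, adjusted p = 0.0181). Palb2, the bridge between Brca1 and Brca2, had overlapping values and a log2 difference of -0.02 (SE 0.34).

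Of the 6 tested strand exchange genes, Rad54l and Rad54b fell, and Rad51d had the highest difference of all members. Rad54l, a motor protein that drives strand invasion, read 198 and 211 units in HSC, against 464 and 378 units in MPP. Both replicate pairs were tight beside the gap between the groups. The difference was -1.01 on the log2 scale (SE 0.19, limma adjusted p = 0.00756). Of its 3 other tested probe sets, 2 were called lower as well, at -1.22 and -1.33, and the dimmest was at -0.70 without a call. Its call ended without MPP replicate 1 (log2 difference -0.87, adjusted p = 0.0928).

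Rad54b, a relative of Rad54l, read 25.8 and 18.8 units in HSC, against 76.4 and 63.9 units in MPP. The HSC values were just above the floor. The log2 difference was -1.43 (SE 0.33, limma adjusted p = 0.0189), and the call ended without MPP replicate 1 or 2 (-1.32 and -1.55, adjusted p = 0.145 and 0.0715).

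Rad51d, a recombinase paralog, ran the other way on all 4 of its tested probe sets. The probe set with the highest mean read 80.3 and 113 units in HSC and 67.5 and 54.6 in MPP, which was not called (log2 difference 0.60, adjusted p = 0.214). Another one was called higher in HSC, with 110 and 89.0 units in HSC, against 47.4 and 39.1 units in MPP (log2 difference 1.09, SE 0.28, limma adjusted p = 0.0298). It was the 1 member probe set of 70 that was called higher, against 5.96% of all probe sets, while 16 were called lower, against 4.65%. Its call ended without HSC replicate 1 (0.95, adjusted p = 0.0768), without MPP replicate 1 (1.22, adjusted p = 0.064), without MPP replicate 2 (0.97, adjusted p = 0.158), and after quantile normalization (0.92, adjusted p = 0.0644) or with equal array medians (0.83, adjusted p = 0.0768). The last 2 Rad51d probe sets were at 0.28 and 1.28, neither of them called (limma adjusted p = 0.617 and 0.113). On the one at 1.28 both MPP arrays were at or below the floor. With those arrays set at their floor, the HSC readings came out at least 1.92-fold higher.

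Rad51c, Xrcc3 and Rad52 were not called. Rad51c, a paralog that stabilises the filament, had 27.7 and 24.9 units in HSC and 47.3 and 32.6 in MPP (log2 difference -0.49, SE 0.36). Xrcc3, its partner, was at -0.18 and -0.42 on 2 probe sets. Rad52, an annealing protein, was at -0.19 on one probe set and 0.56 on the other.

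**Figure D2:**
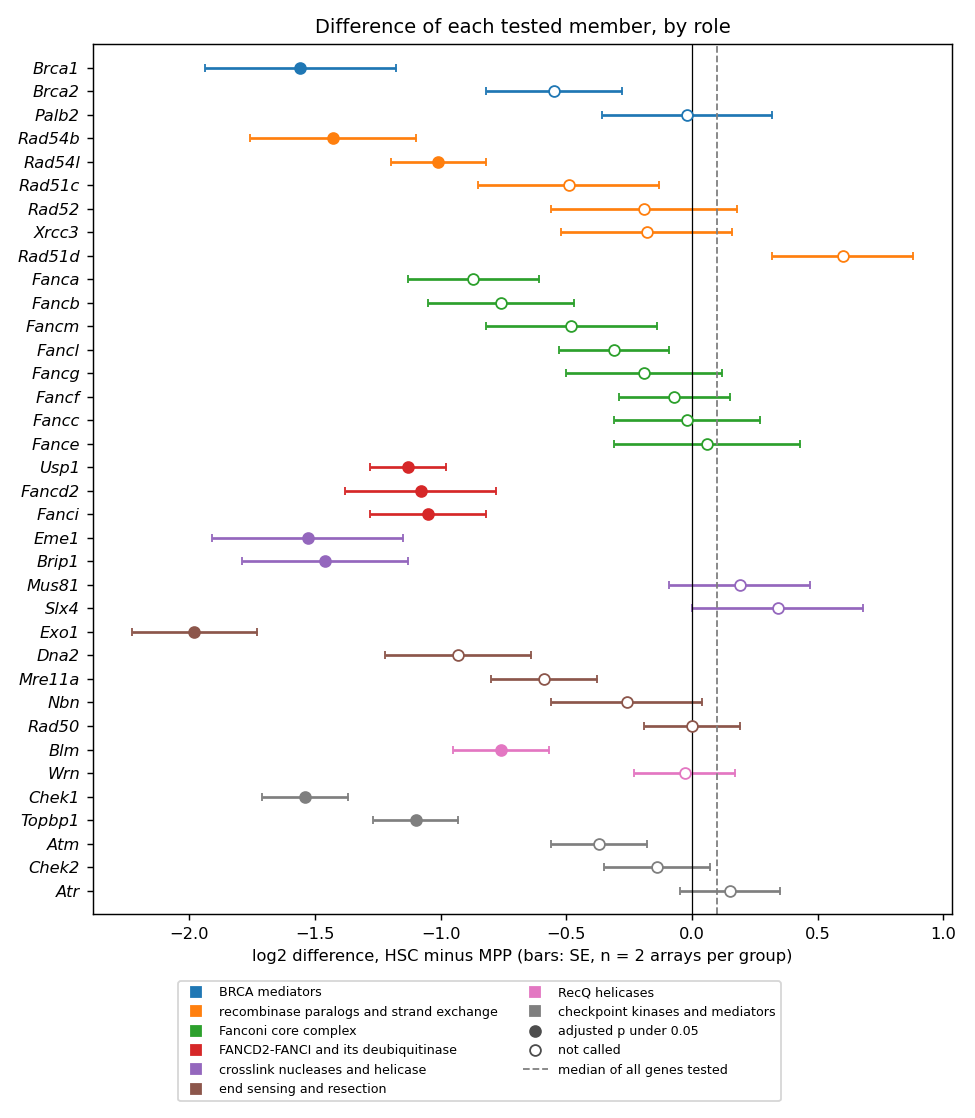
Log2 difference, HSC minus MPP, of the 36 tested members by the probe set with the highest mean, grouped by role, with SE bars (n = 2 arrays per group) and filled points for an adjusted p under 0.05. The 12 filled points lie between -1.98 and -0.76, the 8 core complex genes are all open between -0.87 and 0.06, and the dashed line marks the median of all genes at 0.10.

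None of the 8 genes of the Fanconi core complex was called in either direction (limma). Of all genes 5.90% fell and 7.71% rose, and for 8 genes a count of 0 is near both shares. At an unadjusted p under 0.05, 2 were lower and 0 higher, against 11.8% and 16.9% of all genes. Whether the core complex differed from the genes it acts on was not tested. Its median log2 difference was -0.25. Fanca, a scaffold subunit, came nearest, with 69.5 and 55.9 units in HSC and 130 and 109 in MPP (log2 difference -0.87, SE 0.26, adjusted p = 0.0562). A call was made in 6 of the 13 alternatives that tested it, among them quantile normalization and equal array medians. Fancb, which joins the catalytic module, had 43.6 and 68.3 units in HSC and 107 and 87.2 in MPP, and was at -0.76 (adjusted p = 0.138), with a call without HSC replicate 2 (-1.05, adjusted p = 0.0433). The HSC values of Fanca and Fancb lay below their MPP values without overlap. Fancl, the ubiquitin ligase of the complex, was at -0.31 with overlapping groups, and Fancm, the translocase that brings the complex to DNA, at -0.48 without overlap. Another tested Fancm probe set was at -0.45 with overlapping groups. A further one was at 0.56, with both HSC values above both MPP values. The subunit genes Fancg, Fancf, Fancc and Fance lay between -0.19 and 0.06 on the probe sets that represent them, all with overlapping groups. Other tested probe sets of Fancg and Fancc, at -0.58 and 0.28, had groups that did not overlap.

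Fancd2 and Fanci, the pair that receives ubiquitin, and Usp1, the enzyme that takes it off again, all fell. Usp1 read 1229 and 1162 units in HSC, against 2720 and 2542 units in MPP. Neither replicate pair came near the other group, and the log2 difference was -1.13 (SE 0.15, limma adjusted p = 8.88e-04). Its 2 other tested probe sets were at -0.50 and -0.98 without a call. Fanci read 92.1 and 84.3 units in HSC, against 206 and 173 units in MPP (log2 difference -1.05, SE 0.23, limma adjusted p = 0.0137). Fancd2 read 29.5 and 35.8 units in HSC, against 68.8 and 83.2 units in MPP (log2 difference -1.08, SE 0.30, limma adjusted p = 0.0434). In all 3 genes both HSC values lay below both MPP values by more than either replicate pair differed. The Fanci call ended without MPP replicate 1 (-0.93, adjusted p = 0.124). Fancd2 kept a call in the fewest alternatives of the 12, namely 8 of 14. Leaving out HSC replicate 1 put it at -0.97 (adjusted p = 0.066), leaving out MPP replicate 1 at -1.21 (adjusted p = 0.12) and leaving out MPP replicate 2 at -0.96 (adjusted p = 0.276). Its second tested probe set was at -0.50 (adjusted p = 0.432).

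Among the genes that cut and unwind crosslinked DNA, Eme1 and Brip1 fell while Mus81 and Slx4 were not called. Eme1, the regulatory subunit of the MUS81 nuclease, read 14.4 and 34.7 units in HSC, against 77.2 and 77.1 units in MPP. The MPP replicates were nearly identical and HSC replicate 1 was below the floor. The log2 difference was -1.53 (SE 0.38, limma adjusted p = 0.0264), and the call ended without MPP replicate 1 or 2 (-1.53 in both fits, adjusted p = 0.0947 and 0.0999). Mus81, the catalytic subunit of the same nuclease, had 68.3 and 68.5 units in HSC and 70.7 and 49.8 in MPP, a log2 difference of 0.19 (SE 0.28). Slx4, the scaffold that holds several nucleases, had 67.3 and 51.4 units in HSC and 32.9 and 61.1 in MPP, at 0.34 (SE 0.34). Whether Eme1 differed from Mus81 was not tested.

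Brip1, a helicase that binds BRCA1, read 17.6 and 19.5 units in HSC, against 63.9 and 59.1 units in MPP. Both HSC values were barely above the floor and both MPP values well above it. The log2 difference was -1.46 (SE 0.33, limma adjusted p = 0.019), and the call ended without MPP replicate 1 or 2 (-1.41 and -1.51, adjusted p = 0.134 and 0.104). Blm, the RecQ helicase that dissolves joined molecules, read 211 and 233 units in HSC, against 408 and 355 units in MPP (log2 difference -0.76, SE 0.19, limma adjusted p = 0.0279). This was the smallest of the called differences, and it lost its call without MPP replicate 1 or 2 (-0.66 and -0.86, adjusted p = 0.229 and 0.0971). Its relative Wrn overlapped between the groups, with 231 and 263 units in HSC and 281 and 224 in MPP (log2 difference -0.03, SE 0.20).

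Of the checkpoint genes, the effector Chek1 and the ATR activator Topbp1 fell, and 3 kinases were not called. Whether the 3 kinases differed from Chek1 and Topbp1 was not tested. Chek1, the kinase that slows the cell cycle when replication stalls, read 264 and 295 units in HSC, against 855 and 797 units in MPP. The groups were separated by far more than either replicate pair. Chek1 was 2.92-fold lower in HSC (log2 difference -1.54, SE 0.17, limma adjusted p = 3.40e-04) and, like Exo1, was called in all 14 alternatives. Of its 3 other tested probe sets, 2 were called lower, at -1.31 and -2.07, and 1 was at 0.00. On the probe set at -2.07, HSC replicate 2 was below the floor.

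Topbp1, the protein that activates ATR at single-stranded DNA, read 530 and 427 units in HSC, against 997 and 1062 units in MPP. All 4 arrays were far above the floor and the groups did not overlap. The log2 difference was -1.10 (SE 0.17, limma adjusted p = 0.00265), and a second probe set was at -0.99 (adjusted p = 0.0643). Atr itself had 230 and 284 units in HSC and 237 and 224 in MPP, at 0.15 (SE 0.20). Other Atr probe sets were at 0.17 with overlapping groups and at -0.32 without overlap, neither of them called. Atm, the kinase that answers to broken ends, had 236 and 215 units in HSC and 298 and 287 in MPP, which do not overlap but were not called (log2 difference -0.37, adjusted p = 0.268). Chek2, the kinase that ATM activates, had overlapping values and a log2 difference of -0.14 (SE 0.21).

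**Figure D3:**
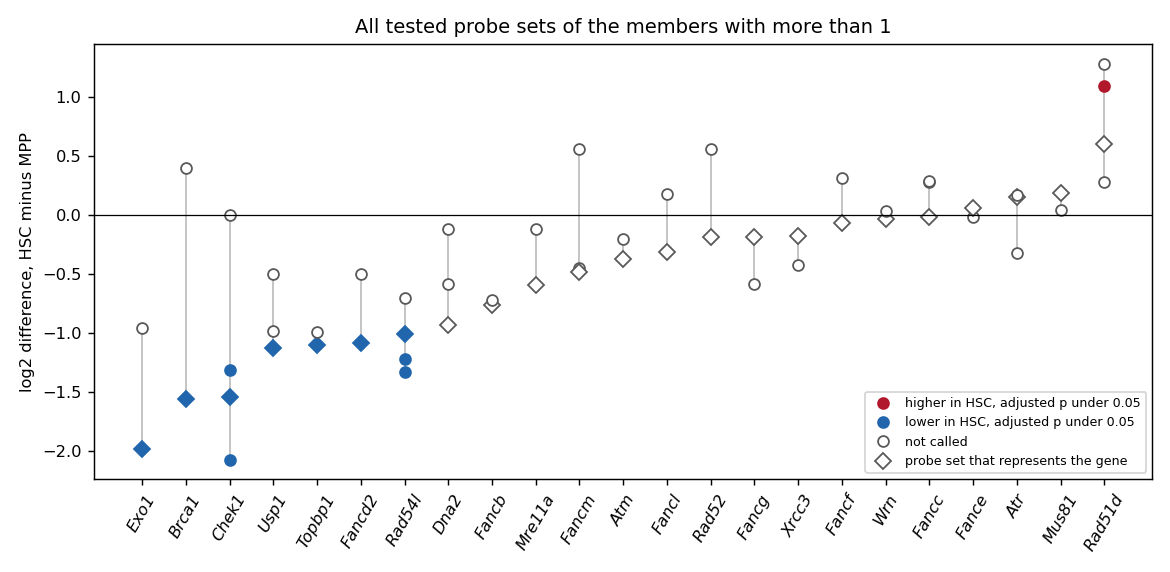
Log2 difference, HSC minus MPP, of every tested probe set of the 23 members with more than 1, with diamonds for the probe set that represents the gene and filled symbols for an adjusted p under 0.05. All 4 Rad51d probe sets lie above 0, and those of Brca1 reach from -1.56 to 0.40.

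Members read by several probe sets gave a check on single readings. Of 23 such members, 11 had every tested probe set below 0, 2 (Rad51d and Mus81, named because of this result) had every one above 0, and 10 had probe sets on both sides. Signs were taken before rounding, and Chek1 was among the 10 by the probe set at 0.00. No member had probe sets called in both directions. Probe sets of 1 gene read different stretches of its transcripts from the same RNA, so they are no replicates of the samples. The replicates of the 36 members lay about as far apart as those of other genes: the median absolute log2 difference between the HSC arrays was 0.25 for members and 0.28 for all genes, and between the MPP arrays 0.27 and 0.22.

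Promoter sequences were set beside these differences, since a shared transcription factor site is one property that the choice of genes did not use. E2F factors and the CHR element are known to drive S phase and G2 phase genes. RefSeq promoters of build GRCm38.p6 were matched for 29 of the 39 members, and the 250 bases before the start were searched on both strands. E2F letters were TTTGGCGC, TTTCGCGC, TTCCCGCC and TTGGCGGG, and CHR letters TTTGAA and TTCGAA. E2F letters stood in 4 of 29 members (13.8%), against 6.56% of tested genes and 3.63% of all genes with a promoter in the table. CHR letters stood in 2 of 29 (6.90%), against 14.8% of tested genes and 19.6% of all genes. The letters CCAAT stood in 15 of 29 (51.7%), against 39.9% of tested genes and 37.5% of all genes, and may overlap other motifs. The NRF1 motif stood in 1 of 29 (3.45%), against 1.84% of tested genes and 0.877% of all genes.

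The E2F letters were found before Brip1 and Topbp1, which fell, and before Fancb and Fancm, which were not called. The 4 members had a median log2 difference of -0.93, and the 24 other tested members with a promoter one of -0.34, of which 6 fell. Exo1, Rad54b, Usp1 and Fancd2 also fell, but no promoter was matched for them and they were not searched. A letter match is a description of the sequence and not a shown site. The 2 promoters of called members with a match are printed whole, with the E2F match in capitals. Among the promoters searched, they are the ones where a match and a called difference meet. That of Brip1 is chr11:86201194-86201443 on the minus strand, with the match starting 141 bases before the start, and that of Topbp1 chr9:103305077-103305326 on the plus strand, with the match 129 bases before it.
Brip1: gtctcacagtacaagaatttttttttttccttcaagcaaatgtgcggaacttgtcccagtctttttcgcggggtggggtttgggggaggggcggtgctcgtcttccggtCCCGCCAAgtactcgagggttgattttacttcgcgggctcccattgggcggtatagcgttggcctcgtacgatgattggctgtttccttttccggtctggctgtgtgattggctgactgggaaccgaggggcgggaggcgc
Topbp1: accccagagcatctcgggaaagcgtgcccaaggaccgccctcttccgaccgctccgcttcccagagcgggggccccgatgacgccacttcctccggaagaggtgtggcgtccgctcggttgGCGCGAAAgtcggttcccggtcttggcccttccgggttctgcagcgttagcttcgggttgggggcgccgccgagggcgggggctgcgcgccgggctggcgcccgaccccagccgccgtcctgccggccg

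The matches of the 2 core complex genes without a call are given as windows of 40 bases, with the E2F letters in capitals, so that the 4 sites can be compared. The Fancb window is chrX:164980403-164980442 and the Fancm window chr12:65075533-65075572, both on the plus strand.
Fancb: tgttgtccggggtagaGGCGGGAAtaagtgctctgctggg
Fancm: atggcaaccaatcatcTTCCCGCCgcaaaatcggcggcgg

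Genes that work with the members also held falls and no rises. Of 36 tested pathway partners, 10 fell and none rose (limma), against 5.90% and 7.71% of all genes, with a median log2 difference of -0.46. At an unadjusted p under 0.05, 17 were lower and 0 higher, against 11.8% and 16.9% of all genes. H2afx, the histone variant that marks breaks, fell to 252 and 256 units in HSC, against 944 and 1009 units in MPP (log2 difference -1.92, SE 0.17, limma adjusted p = 7.84e-05). Rad51ap1, which stimulates strand invasion, was at -1.73 and Clspn, the adaptor between ATR and CHEK1, at -1.49 (limma adjusted p = 2.14e-04 and 0.00152). The other partners that fell, named to complete the count, were Mcm8, Rad18, Ube2t, Rpa3, Rpa2, Rpa1 and Parp1, with log2 differences from -1.17 to -0.65. Ube2t is the conjugating enzyme of the Fanconi core complex, and the 3 Rpa genes encode the protein that coats single-stranded DNA.

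Set beside other lists in the same fit, the members' median of -0.48 lay between that of end joining and those of replication and mitosis. Of 8 tested genes of non-homologous end joining, which rejoins ends without a template, 1 fell and none rose (limma), with a median of -0.14. With 2 lower and 0 higher at an unadjusted p under 0.05, these counts are near the shares of all genes that fell, 5.90% adjusted and 11.8% unadjusted. The one that fell was Xrcc6, a subunit of the end-binding Ku protein (log2 difference -0.83, limma adjusted p = 0.00919). Of 26 DNA replication genes 23 fell, with a median of -1.09, and the 3 with the smallest p, Tk1, Fen1 and Mcm2, were at -1.99, -1.48 and -1.61. All 23 tested mitosis genes fell, with a median of -2.29, and the 3 with the smallest p, Mki67, Top2a and Prc1, were at -2.34, -2.29 and -2.51. The differences between these lists were not tested.

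**Figure D4:**
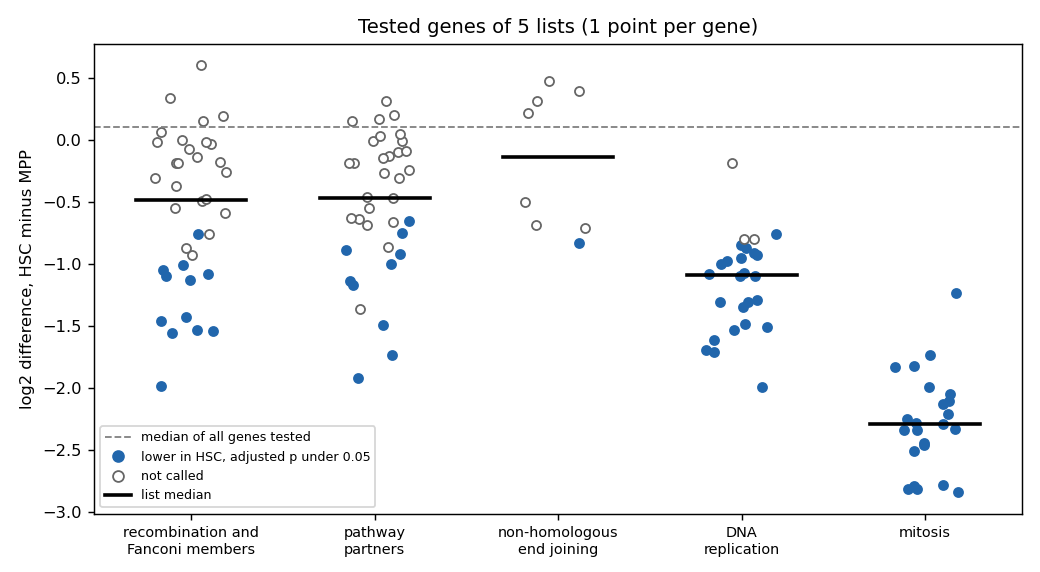
Log2 difference, HSC minus MPP, of each tested gene in 5 lists, with filled points for an adjusted p under 0.05, list medians as bars and the median of all genes as a dashed line. The medians are -0.48 for the recombination and Fanconi members, -0.46 for their partners, -0.14 for end joining, -1.09 for replication and -2.29 for mitosis.

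The size of the members' shift depended on how the arrays were scaled, but its distance from other genes less so. With equal array medians the median of all genes moved to -0.18 and that of the members to -0.73, and 17 members fell, against 12.8% of all genes. Relative to the median of all genes, the members were at -0.58 as deposited, -0.63 after quantile normalization and -0.56 with equal array medians. No member was called higher in any of the 14 alternatives, in which 3.07% to 11.4% of all genes rose. Of the 24 tested members without a call, 18 were called in none of the alternatives, and the 6 others were Dna2, Fanca, Fancb, Mre11a, Brca2 and Atm. For this count no share over all genes is given.

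**Figure D5:**
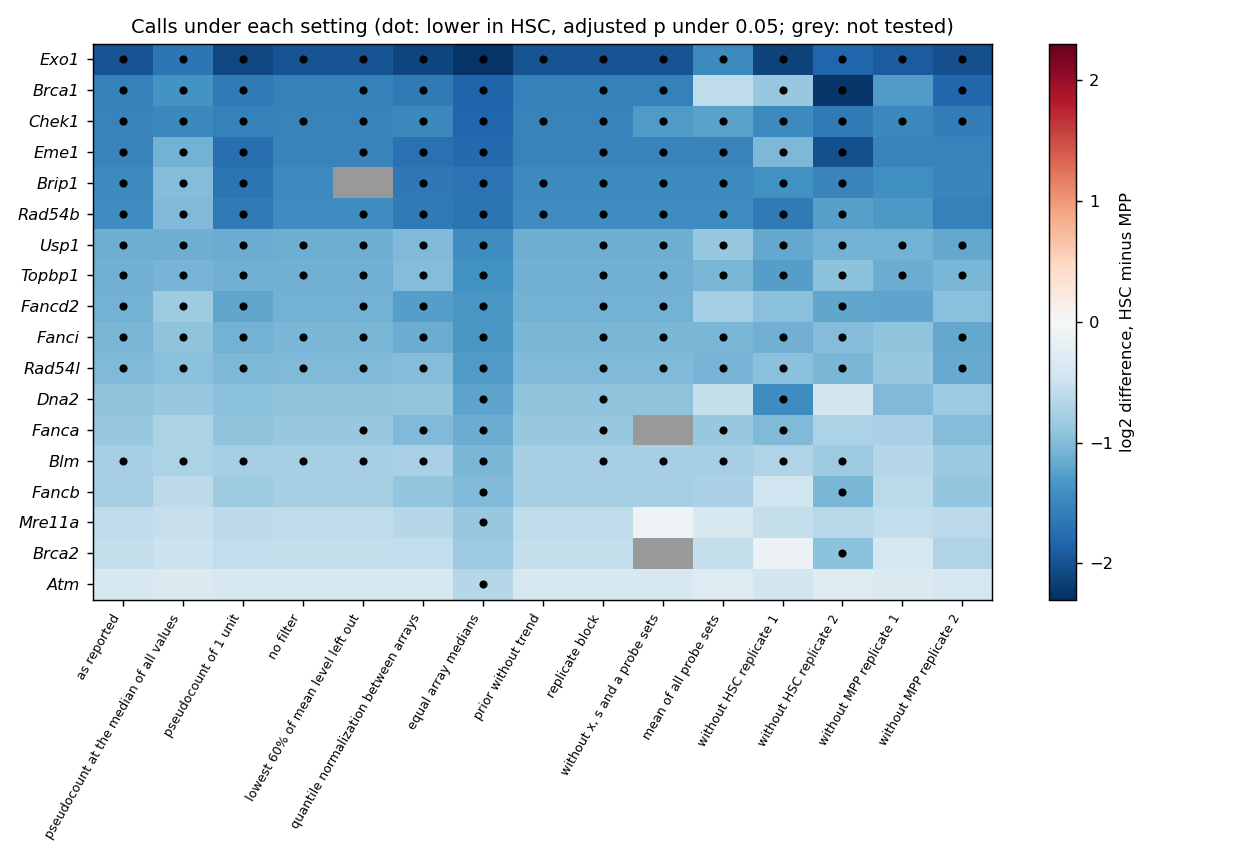
Log2 difference, HSC minus MPP, as colour for the 12 called members and the 6 others that were called in at least 1 alternative (rows) under each setting (columns), with a dot for an adjusted p under 0.05 and grey for not tested. Exo1 and Chek1 carry a dot in every column, and Fancd2 in 8 of the 14 alternatives.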

How the data were processed

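The authors deposited 1 linear intensity per probe set and array. For the program that summarised the probes, no name is given in the sources used here. Every array had a mean of 100.0 units after the outer 2% at each end was trimmed in the deposited table. The label protocols state 2-cycle amplification, which favours 3' ends. No detection calls were used. Of 45037 probe sets without 64 controls, 34945 had 1 gene symbol, 932 several and 9160 none in the platform annotation, and 34741 of the first matched RefSeq genes (GRCm38.p6, names only).

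Differences were taken on log2(intensity + 6.01), where 6.01 is 0.25 times the median of all values, with no further normalization. Folds are on this scale, which understates dim genes. The lowest 40% by mean level were left out. HSC and MPP were compared in limma 3.58.1 (R 4.3.3; lmFit, eBayes with trend, 2 residual and 8.48 prior degrees of freedom), 2-sided, with Benjamini-Hochberg adjustment over 27022 probe sets and a threshold of 0.05. The fit was tested on simulated data. The brightest of a gene's tested probe sets, by mean, stands for the gene. An exact permutation test of 2 against 2 arrays cannot go below p = 0.333 and was not used. The labels call the replicates biological but do not say that they came from different animals, and p-values cover no more than the spread among these 4 arrays, which may be technical. With 4 arrays, their number limits the precision.

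Members and lists were chosen with earlier results of these data known. Array values are given for the 14 called members with the largest differences (12 were called) and for members with a called probe set beside an uncalled representative; those of some other members were added. Of each other list, the 3 called genes with the smallest p are named. Promoters are printed for up to 4 called members with E2F or CHR letters (2 of those searched had them). The closing section gives 14 alternatives. A bound ("at least") sets a dim array at its floor.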

Additional observations from a re-analysis of the deposited data

How the results depend on the processing

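All 12 members that fell kept a difference below 0 in every alternative, and 2 of them, Exo1 and Chek1, were called in all 14. The count of 12 was 7 when the filter on mean level was dropped, where 2.65% of all genes fell, and 4 when the prior variance had no trend, where 1.87% fell. It ranged from 4 to 14 with an array left out. The 16 probe sets called lower were 10 with no filter and 7 without the trend, and 6 to 20 with an array left out. The 1 called higher was 0 with no filter, after quantile normalization, with equal array medians and without the trend, and 0 to 1 with an array left out. The 10 partners that fell were 6 with no filter, 16 with equal array medians and 3 without the trend, and 3 to 13 with an array left out. The members' median of -0.48 was -0.35 with the pseudocount at the median of all values, -0.61 after quantile normalization, -0.73 with equal array medians, and -0.37 in a pair of settings: leaving out probe sets with a suffix for shared or partly matching targets, and averaging a gene's tested probe sets. It lay between -0.53 and -0.47 with an array left out. Of all genes, 5.90% fell in the main fit, 2.65% with no filter, 12.8% with equal array medians and 1.87% without the trend. Rises went from 7.71% to 3.16% with no filter, 6.70% after quantile normalization, 4.84% with equal array medians and 3.07% without the trend. The share that fell was also smaller without an MPP array and larger without an HSC array. The counts of member probe sets and partners that fell moved in the same directions. Shares over all probe sets are given for the main fit only, at 4.65% lower and 5.96% higher. The probe set counts of the other settings therefore have no share of their own beside them. Dropping the filter adds tests, and the fits without an array hold fewer samples. Whether these or other properties caused any of the changes was not tested.

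The labels number replicates 1 and 2 in both groups, but same-numbered arrays did not deviate together (correlation of their deviations 0.027 over 27022 probe sets). The main fit did not pair the samples. With 2 arrays per group, this correlation cannot exclude that same-numbered samples shared a source. With the replicate number as a block, 14 members fell, against 8.21% of all genes (11.4% rose), and the median stayed at -0.48. In that fit 21 member probe sets were called lower and 1 higher, and 13 partners fell. The 8.21% and 11.4% are shares of genes, and no share over all probe sets is given for it. Signal near the floor limits Eme1, Brip1 and Rad54b in HSC.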

Other observations

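Some members varied widely between the 2 HSC samples. HSC replicate 2 exceeded replicate 1 by 1.36 on the log2 scale for Brca1, 0.99 for Eme1, 0.88 for Nbn and 0.81 for Brca2, and lay below it by a log2 difference of -1.01 for Dna2. These genes were chosen after their values were seen. Over all tested members, 2 of 36 differed by more than 1 between the HSC arrays (5.56%) and 0 between the MPP arrays, against 5.49% and 4.39% of all genes.

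Rad54b had 2 further probe sets that the annotation assigns to it and to Fsbp jointly, so the rule left them out. One read 73.5 and 3.77 units in HSC and 152 and 168 in MPP, with HSC replicate 2 below the floor (log2 difference -2.57, SE 0.71, limma adjusted p = 0.0448). The other read 16.5 and 18.1 units in HSC and 11.5 and 20.7 in MPP, around the floor (log2 difference 0.11).

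Of the 13 member probe sets below the level filter, 5 were at or under the floor on all 4 arrays.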
